A study of Macaca mulatta with 4 samples.

Results

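PAX2-positive nuclei that also carried markers of GABAergic cells were examined in the fetal rhesus macaque cerebellum. A barcode was taken as a PAX2+ nucleus when it held at least 500 genes, at least 1 unique molecular identifier (UMI) of PAX2, and at least 2 of the companion markers GAD1, GAD2, TFAP2B, SORCS3 and SKOR1. Of 32587 barcodes with at least 500 genes, 1078 met this rule. These were 335 nuclei in the Control female library, 336 in the Control male library, 265 in the LPS female library and 142 in the LPS male library. Each library was single-nuclei RNA from the cerebellum of 1 fetus. The 2 control fetuses had no intervention and were taken at 130 days of gestational age. The 2 LPS-exposed fetuses had 1 mg of intra-amniotic LPS, the endotoxin used to model chorioamnionitis, 5 days before delivery, at 131 days (female) and 133 days (male).

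The inhibitory interneurons of the cerebellar cortex and nuclei descend from progenitors of the ventricular zone. Their precursors switch on the transcription factor PAX2 as they leave the cell cycle, migrate through the prospective white matter and settle in the cortex. Basket and stellate cells of the molecular layer are known to lose PAX2 as they mature, whereas Golgi cells, which release GABA and glycine onto the granule layer, are known to keep it.

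The 4 libraries held between 34282015 and 61665690 UMIs. The median PAX2+ nucleus had 5322 UMIs in Control female, 3281 in Control male, 5285 in LPS female and 4093.5 in LPS male. The other barcodes were shallower in every library, with medians of 4481, 1847, 4023 and 2279 UMIs in the same order. Only 1 column position of the count matrices held a PAX2+ nucleus in more than 1 library (Control male and LPS female). Barcode sequences were not compared. The 2 male libraries stood apart from the 2 female ones: mitochondrial UMIs made up a mean of 0.0144 and 0.0206% of a PAX2+ nucleus in the males and 0.184 and 0.158% in the females, and 65.1% of the 10605 genes tested in PAX2+ nuclei had male and female libraries that did not overlap in level per library (CPM, the UMIs of a gene scaled to a common library total). Sex and anything else that the 2 libraries of a sex shared cannot be told apart here. Since the nuclei of a fetus are not replicates, each condition had n = 2.

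The rule selected on PAX2 and its companions, so their levels are given as a description with no test. PAX2 stood at 534, 744, 560 and 502 CPM in the PAX2+ nuclei of Control female, Control male, LPS female and LPS male, and at 3.34, 13.9, 2.41 and 6.02 CPM in all other barcodes. In barcodes of at most 100 UMIs, which hold mainly RNA from outside nuclei, PAX2 stood at 21.9, 63.6, 26.5 and 26.8 CPM. A nucleus held a median of 3, 2, 3 and 2 PAX2 UMIs in the same order of libraries, and 108, 106, 74 and 68 nuclei held a single one. GAD1 and GAD2, the enzymes that make GABA from glutamate, were detected in 84.8, 76.8, 89.4 and 87.3% and in 86.0, 73.5, 84.5 and 71.1% of the PAX2+ nuclei. The transcription factor TFAP2B was detected in 76.4, 60.7, 79.2 and 50%, the sorting receptor SORCS3 in 55.8, 61.9, 65.7 and 66.2%, and the co-repressor SKOR1 in 50.1, 43.2, 48.3 and 47.2%.

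The edges of the rule were thinly filled on the gene number and well filled on the markers. In the range of 500 to 549 genes, 0, 1, 0 and 1 barcodes met the marker criteria in Control female, Control male, LPS female and LPS male, and in the range of 450 to 499 genes none did. PAX2+ barcodes with exactly 2 companion markers, just inside the rule, numbered 47, 89, 29 and 36. Those with exactly 1, just outside it, numbered 22, 59, 10 and 27. A further 1011 barcodes had at least 2 companion markers and no PAX2 UMI, namely 225, 289, 186 and 311. These served as the nearest comparison group, called PAX2-negative below. They were not interneurons alone: the Purkinje marker ITPR1 stood at 4352, 4105, 4564 and 1229 CPM in them in Control female, Control male, LPS female and LPS male, and Purkinje markers summed to 46342, 16636, 36491 and 11488 CPM against 21221, 8242, 20050 and 8061 CPM in PAX2+ nuclei. Contrasts with this group are therefore partly with Purkinje-marker nuclei. Of the 1011 PAX2-negative barcodes, 43 carried a UMI of SLC6A5. KIT, a marker of molecular layer interneurons, has no entry under that symbol in the gene list, so KIT-positive barcodes were not separated.

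Cells that lack PAX2 gave a measure of how often the rule can be met by free RNA or by 2 nuclei in 1 droplet. The rule was met by 4 of 492 barcodes with at least 3 fibroblast markers (0.813%, exact 95% interval 0.222 to 2.07%), by 7 of 243 with at least 3 microglial markers (2.88%, 1.17 to 5.84%) and by 32 of 1208 with at least 3 markers of the oligodendrocyte lineage (2.65%, 1.82 to 3.72%). These counts pool libraries that differed. In Control female, Control male, LPS female and LPS male the oligodendrocyte lineage shares were 2.90, 6.67, 1.99 and 2.01%. The microglial shares were 4.76, 3.57, 1.52 and 0%, and the fibroblast shares 0, 1.55, 0.763 and 0%. The shares over all barcodes, given below, were 1.82 to 3.90%, so a single barcode that meets the rule is not set apart from background by it. Levels of genes that the rule did not use follow.

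**Figure D1:**
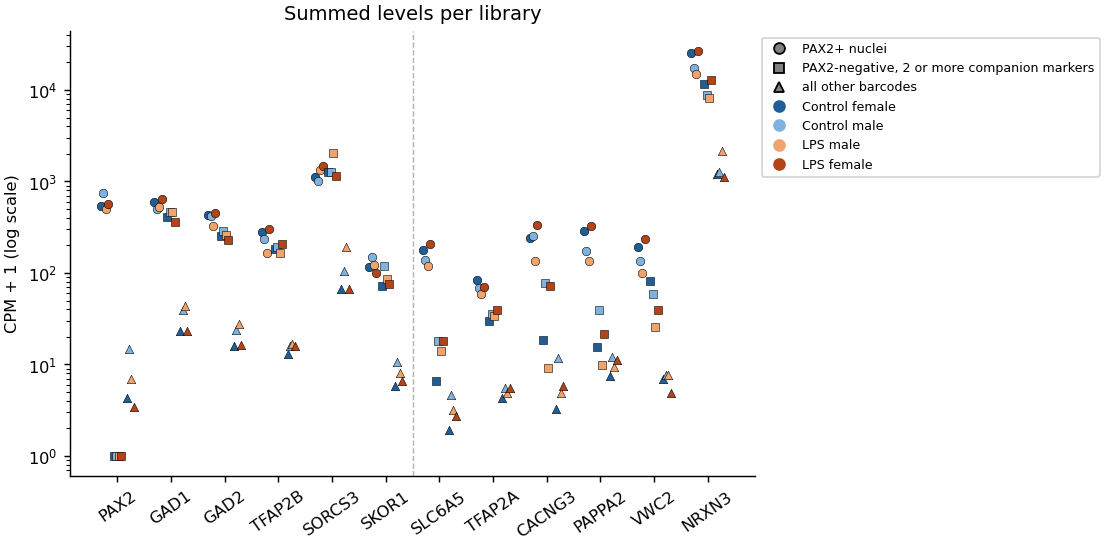
Level of 12 genes, as CPM + 1 on a log axis, summed over the PAX2+ nuclei (circles), over PAX2-negative barcodes with at least 2 companion markers (squares) and over all other barcodes (triangles), with 1 point per library. The 6 genes left of the dashed line belong to the rule. Right of it, SLC6A5 in PAX2+ nuclei lies between 118 and 209 CPM in every library and at most at 17.0 CPM in the other sets.

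Genes outside the rule followed the PAX2+ nuclei in every library. The highest lowest-library fold among genes outside the rule was that of SLC6A5, the glycine transporter that marks glycinergic neurons, at 179, 136, 209 and 118 CPM in the PAX2+ nuclei of Control female, Control male, LPS female and LPS male. It stood at 0.927, 3.65, 1.76 and 2.17 CPM in all other barcodes and at 5.60, 17.0, 16.9 and 13.0 CPM in PAX2-negative barcodes. SLC6A5 was detected in 30.1, 29.5, 30.9 and 17.6% of PAX2+ nuclei, and in 3.56, 4.84, 6.99 and 2.57% of PAX2-negative barcodes. PAX2+ and PAX2-negative nuclei thus differed in SLC6A5 in all 4 libraries, with no overlap.

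TFAP2A, a relative of TFAP2B that also acts in GABAergic precursors, stood at 82.1, 67.7, 69.8 and 58.5 CPM in the PAX2+ nuclei of the 4 libraries in that order, against 28.6, 34.9, 38.9 and 32.9 CPM in PAX2-negative barcodes. CACNG3, an auxiliary subunit of AMPA receptors, stood at 239, 250, 338 and 135 CPM, against 17.4, 76.4, 71.2 and 8.23 CPM in PAX2-negative barcodes. Among the 20 genes with the highest fold over all other barcodes in the library where that fold was lowest were also PAPPA2, VWC2, TLL2, CCBE1, HTR1F, CNIH3, THSD7B, NECTIN1, GRIK3 and the unnamed genes ENSMMUG00000038681 and ENSMMUG00000041855. The lowest of the 4 folds was 4.88 on the log2 scale for SLC6A5, 4.42 for CACNG3, 3.83 for PAPPA2, 3.60 for TFAP2A and 2.95 for GRIK3, a kainate receptor subunit, with 1 CPM added to both levels. At the other end were genes of granule cells and of dividing cells. In the library where the difference was smallest, CADPS2, SLC17A6 and NTF3 were at -1.47, -1.51 and -1.74 on the log2 scale against the other barcodes, and DIAPH3, a gene of cell division, at -1.54.

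The marker lists of other cell types were summed in the same way. The 10 Golgi or glycinergic markers summed to 2214, 1439, 2580 and 1202 CPM in PAX2+ nuclei of Control female, Control male, LPS female and LPS male, against 170, 160, 155 and 149 CPM in all other barcodes and 739, 430, 527 and 640 CPM in PAX2-negative barcodes. In this list 7 of 10 markers were above all other barcodes in every library. Without SORCS3, which belongs to the rule, the 9 markers of molecular layer interneurons that were found summed to 2634, 1814, 2589 and 2581 CPM in PAX2+ nuclei and to 3183, 2887, 2956 and 3677 CPM in PAX2-negative barcodes. Here the order of the sums was turned round, with PAX2-negative barcodes above in all 4 libraries, and 7 of the 9 markers exceeded the other barcodes in every library. The members did not all go this way. KCNMA1 stood at 314, 451, 218 and 791 CPM in PAX2+ nuclei and at 933, 1246, 697.5 and 1424 CPM in PAX2-negative barcodes. In both female libraries this gap in KCNMA1 was larger than the gap between the sums. The order of the sums there thus depended on KCNMA1. NXPH1 was higher in PAX2+ nuclei in every library, at 1167, 599, 1148 and 744 CPM against 627, 508, 985 and 659 CPM.

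Of the 13 granule cell markers found, 12 were lower in PAX2+ nuclei than in the other barcodes of every library, and of 20 cycling cell markers, 18 were. Granule cell markers summed to 1355, 2837, 1236 and 2983 CPM in PAX2+ nuclei of Control female, Control male, LPS female and LPS male. In PAX2-negative barcodes they summed to 1219, 2077, 1147 and 2990 CPM, so PAX2+ nuclei were below these in LPS male only. Cycling markers summed to between 247 and 423 CPM in PAX2+ nuclei and between 706 and 949 CPM in the other barcodes. In PAX2-negative barcodes they summed to between 425 and 627 CPM. The sums of microglial markers (27.3 to 50.4 CPM) and fibroblast markers (15.6 to 51.1 CPM) were low, and 8 of 9 and 7 of 7 of these genes were lower in PAX2+ nuclei than in the other barcodes of every library. Purkinje markers were mixed, with 2 of 11 above and 2 of 11 below the others in every library. Golgi or glycinergic markers outside the rule were thus higher in sum, and granule and cycling cell markers lower, than in the other barcodes. The lists were chosen with earlier results of these data known. These sums are therefore a description and not independent evidence for the label of inhibitory interneurons. Golgi markers were found in part of the nuclei, and they do not measure maturity. The word immature belongs to the label and was not tested.

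**Figure D2:**
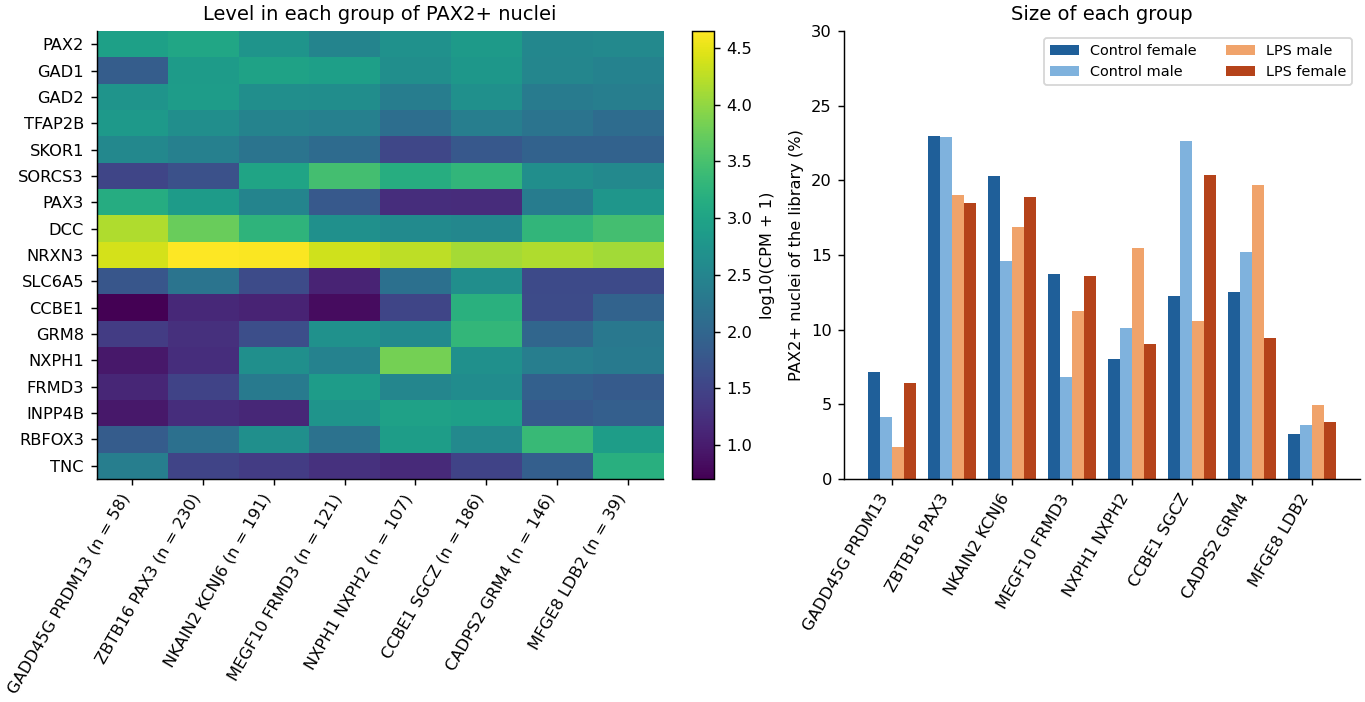
Left, level of 17 genes in the 8 groups of PAX2+ nuclei, as log10 of CPM + 1 over all 4 libraries, with the number of nuclei in each group. Right, share of the PAX2+ nuclei of each library that fell in each group. SORCS3 is low in the 2 groups on the left, where PAX3 and DCC are high, and CCBE1 and GRM8 are high in the CCBE1 SGCZ group.

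Clustering of the 1078 nuclei, with genes scaled within each library, gave 8 groups, which are described here by their leading genes and without a test. The largest, of 230 nuclei, was led by ZBTB16, PLXDC2, IFI16, NHLH1 and TOX, with PAX3 at 735 CPM against 201.5 CPM in the remaining PAX2+ nuclei. NHLH1 is a transcription factor of newly born neurons. PAX3 is a paired-box factor of neural progenitors. A smaller group of 58 nuclei was led by GADD45G, CPNE4, PRDM13 and GFRA1. PRDM13, a factor of GABAergic progenitors, stood at 122 CPM there and at 4.93 CPM in the rest. ZBTB16 and PAX3 were higher there than in the largest group, with ZBTB16 at 581 against 401 CPM. PAX3 stood at 1245, 1743, 1470 and 803 CPM against 836, 691, 670 and 583 CPM in Control female, Control male, LPS female and LPS male. The LPS male level of the smaller group rests on 3 nuclei. The guidance receptor DCC stood at 15188 CPM in the GADD45G PRDM13 group, at 5589 CPM in the ZBTB16 PAX3 group and at 340 CPM in the CCBE1 SGCZ group described next.

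The group of 186 nuclei led by CPLX4, CCBE1, TLL2, HTR1F, PLXNA4 and SGCZ was high for the list of Golgi or glycinergic interneuron markers. Of that list, 9 of 10 were more than 2-fold above the other PAX2+ nuclei. The list was chosen with earlier results of these data known, and CCBE1, THSD7B and LGI2 are also leading genes of the group. The 9 include genes of low counts, since 7 of the 10 passed the count filter of the LPS fit. The count is therefore a description and not independent evidence. CCBE1 stood at 1620 against 27.1 CPM in the rest, the glutamate receptor gene GRM8 at 2074 CPM, THSD7B at 1346 CPM and SLC6A5 at 446 CPM. It is called Golgi-like here. SLC6A5 was not restricted to it, with 163 CPM in the ZBTB16 PAX3 group and 145 CPM in the NXPH1 NXPH2 group, and 11.6 to 56.9 CPM in the other 5. The SLC6A5 level of the Golgi-like group was 435, 349, 508 and 467 CPM in Control female, Control male, LPS female and LPS male.

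The NXPH1 NXPH2 group held 107 nuclei. NXPH1, a secreted ligand of neurexins, stood at 6596 CPM against 296 CPM in the rest, and 6 of 10 molecular layer interneuron markers were more than 2-fold above the rest. A group of 191 nuclei was led by NKAIN2, NRIP1, KCNJ6 and ALK, and a group of 121 nuclei by MEGF10, FRMD3, CACNG2 and TRPC5, with SORCS3 at 2983 CPM. GAD1 was at 959 and 846 CPM in them, and neither was given a cell type name. In the MEGF10 FRMD3 group 4 of 10 molecular layer interneuron markers were more than 2-fold above the rest, among them the rule gene SORCS3 and FRMD3. Of 11 Purkinje markers, 8 were above that fold. The Purkinje count is over all libraries together, and ITPR1 was detected in 25 of the 121 nuclei, CA8 in 7 and SKOR2 in 5. By library the group held ITPR1 at 2643, 1956, 25.8 and 90.4 CPM and CA8 at 292, 294, 10.3 and 0 CPM in Control female, Control male, LPS female and LPS male, so both were high in the control libraries only, where a few nuclei described below hold most of the ITPR1 UMIs.

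The last 2 groups carried genes of other cells. The 146 nuclei of the CADPS2 GRM4 group had 8 of 13 granule cell markers more than 2-fold above the rest, RBFOX3 among them at 2265 CPM, and 77.4% of them were among the 8% of barcodes of their library with the highest doublet scores. The 39 nuclei of the MFGE8 LDB2 group had 13 of 14 astroglial or progenitor, 6 of 7 fibroblast, 5 of 7 endothelial or mural and 12 of 20 cycling markers above that fold, and 79.5% had high doublet scores. The CADPS2 GRM4 group also had 10 of 20 cycling markers above it. In the NXPH1 NXPH2 group the share was 17.8% (19 of 107 nuclei), in the Golgi-like group 3.23%, in the NKAIN2 KCNJ6 group 1.05%, in the ZBTB16 PAX3 group 0.435%, and in the MEGF10 FRMD3 and GADD45G PRDM13 groups 0%. High doublet scores were found in 16.7, 14.9, 13.6 and 21.1% of all PAX2+ nuclei of Control female, Control male, LPS female and LPS male.

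Every group held nuclei of all 4 libraries. The ZBTB16 PAX3 group made up 23.0, 22.9, 18.5 and 19.0% of the PAX2+ nuclei of Control female, Control male, LPS female and LPS male, the Golgi-like group 12.2, 22.6, 20.4 and 10.6%, and the GADD45G PRDM13 group 7.16, 4.17, 6.42 and 2.11%. The last share rests on 3 nuclei in LPS male. The Golgi-like group was lowest in LPS male and next lowest in Control female, so its order did not follow the condition, and the sizes were not tested.

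**Figure D3:**
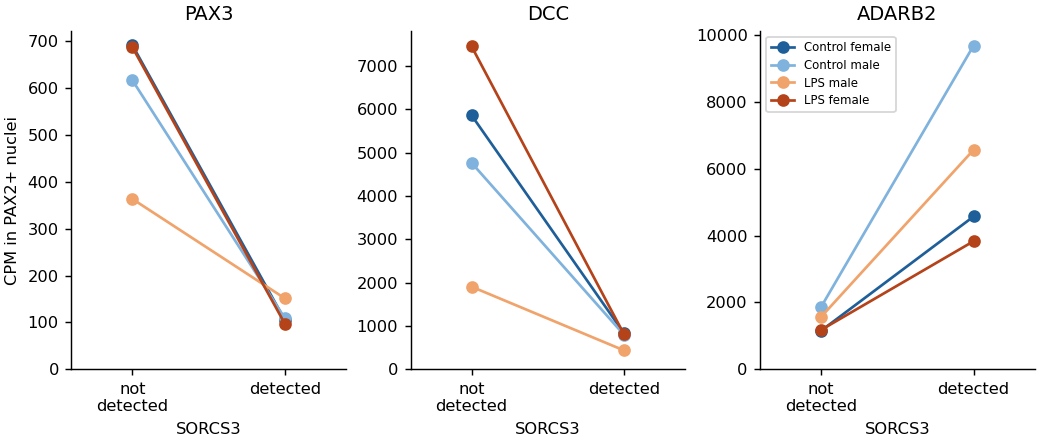
Level in CPM of PAX3, DCC and ADARB2 in PAX2+ nuclei without and with a UMI of SORCS3, with 1 line per library and the vertical axes starting at 0. PAX3 and DCC fall and ADARB2 rises from left to right in all 4 libraries.

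SORCS3 was detected in part of the nuclei, and other genes differed with it. It stood at 32.5 and 46.7 CPM in the GADD45G PRDM13 and ZBTB16 PAX3 groups and between 1031 and 2983 CPM in the NKAIN2 KCNJ6, MEGF10 FRMD3, NXPH1 NXPH2 and Golgi-like groups. In nuclei with no SORCS3 UMI, PAX3 stood at 692, 617, 688 and 364 CPM in Control female, Control male, LPS female and LPS male, and in nuclei with SORCS3 at 106, 109, 97.8 and 152 CPM. DCC went the same way in every library, from 5861, 4764, 7451 and 1906 CPM to 831, 796, 808 and 436 CPM. ADARB2, of the family of RNA editing enzymes, went the other way, from 1158, 1873, 1181 and 1573 CPM to 4572, 9685, 3832 and 6566 CPM. SLC6A5 did not divide as plainly, at 145, 80.8, 79.3 and 48.2 CPM without SORCS3 and 195, 162, 258 and 148 CPM with it. Nuclei with a SORCS3 UMI were deeper, with medians of 6561, 3680, 6300 and 4370.5 UMIs against 4766.5, 2911, 4482 and 3363.5 UMIs. The part of depth in the split was not tested. Nuclei were split on a gene of the rule, so no test was run.

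**Figure D4:**
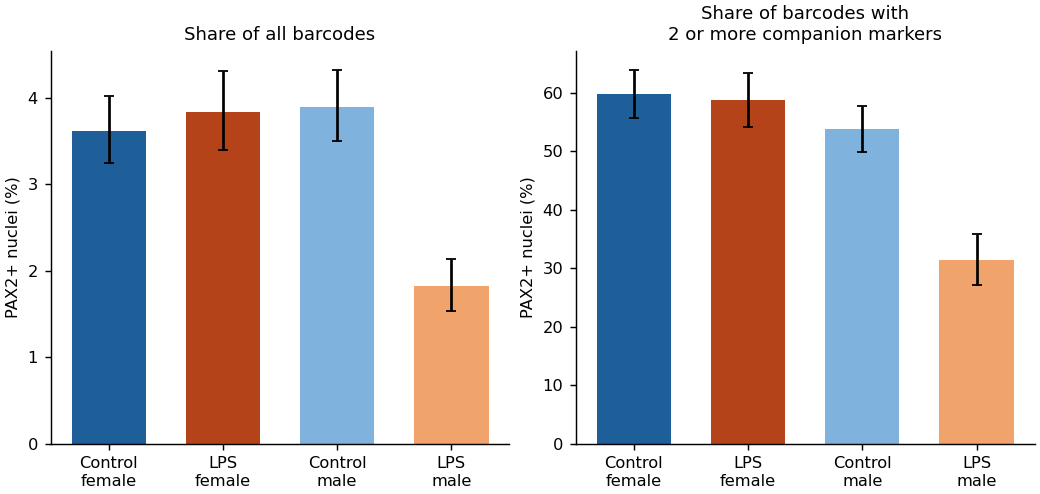
PAX2+ nuclei as a percent of all barcodes with at least 500 genes (left) and of barcodes with at least 2 companion markers (right), with 1 bar per library. Error bars are exact 95% intervals, which cover counting error only. LPS male lies below the other 3 libraries in both panels.

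The first comparison asked whether PAX2+ nuclei were scarcer in LPS-exposed fetuses. PAX2+ nuclei made up 3.62% (exact 95% interval 3.25 to 4.02%) of barcodes in Control female, 3.90% (3.50 to 4.33%) in Control male, 3.84% (3.397 to 4.32%) in LPS female and 1.82% (1.53 to 2.14%) in LPS male. LPS male was low, and LPS female lay between the 2 controls, so the groups overlapped. The barcodes counted were 9256, 8621, 6905 and 7805 in the same order. For LPS male this was well above the nuclei that the study kept, while the other libraries were near the study's counts. NRXN3 was detected in 54.4, 55.6, 41.8 and 87.4% of the barcodes that were not PAX2+ nuclei, so those of LPS male differed. The part of this in its low share was not tested. The means were 3.76% ± 0.197 (SD, n = 2) in controls and 2.83% ± 1.43 (SD, n = 2) in LPS-exposed fetuses, a difference of -0.930 percentage points (two-sided exact permutation p = 0.667, where the smallest p that 2 against 2 libraries allow is 0.333). Within females the difference was 0.219 points and within males -2.08 points. Without the LPS male library the difference of means was 0.0794 points. After each barcode was thinned to 1000 UMIs, leaving out 389, 780, 165 and 1788 shallower barcodes of Control female, Control male, LPS female and LPS male, the shares were 0.699, 1.505, 1.02 and 0.532%. In tallies of this kind a lower number of PAX2+ nuclei and a lower PAX2 level per nucleus cannot be told apart.

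The values for the companion markers, which belong to the rule, are given as a description and do not separate these possibilities. Barcodes with at least 2 companion markers made up 6.05, 7.25, 6.53 and 5.80% of Control female, Control male, LPS female and LPS male, a narrower range than that of the PAX2+ nuclei. Of these barcodes, 59.8% (exact 95% interval 55.6 to 63.9%), 53.8% (49.8 to 57.7%), 58.8% (54.1 to 63.3%) and 31.3% (27.1 to 35.8%) carried PAX2. After thinning the shares were 24.2, 33.7, 29.4 and 14.7%. Summed over all barcodes with at least 2 companion markers, PAX2 stood at 307, 437, 321 and 173 CPM, PAX3 at 296, 242, 259 and 147 CPM, and SLC6A5 at 105, 86.9, 127 and 49.4 CPM, all lowest in LPS male, while SORCS3 stood at 1176, 1123, 1341 and 1799 CPM and was highest there. SORCS3 was also highest in LPS male in other sets of barcodes. In all barcodes that were not PAX2+ nuclei it stood at 66.2, 104.3, 65.6 and 192.5 CPM and was detected in 5.88, 7.53, 5.27 and 14.2% of them. That set includes the PAX2-negative barcodes, so it partly repeats the values above. In barcodes of at most 100 UMIs, a separate set, SORCS3 stood at 75.2, 172, 75.4 and 210.3 CPM. SORCS3 counts toward the companion rule, and its part in the number of PAX2-negative barcodes was not tested. LPS male was also the oldest fetus, at 133 days, and in a single library age, exposure and the fetus itself cannot be told apart.

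**Figure D5:**
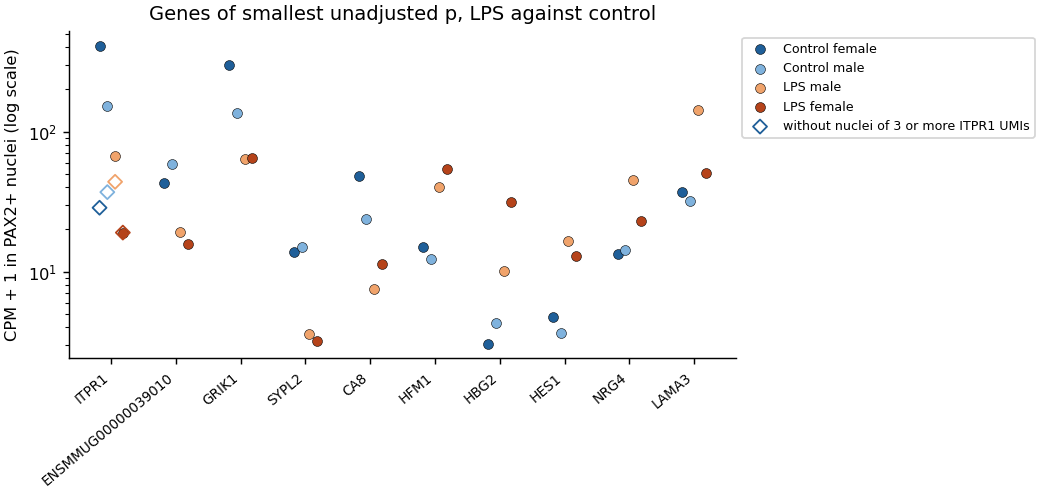
Level in the PAX2+ nuclei of each library, as CPM + 1 on a log axis, of the 5 genes of smallest unadjusted p that were lower and the 5 that were higher in LPS-exposed fetuses. Open diamonds give ITPR1 without nuclei of 3 or more ITPR1 UMIs, a choice that uses ITPR1 itself and so lowers the libraries that hold such nuclei.

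The second comparison asked which genes changed in PAX2+ nuclei after LPS. UMIs were summed per library and tested with edgeR's quasi-likelihood test with Benjamini-Hochberg adjustment, and genes were called at an adjusted p under 0.1 and a log2 fold change over 0.25 in size. Of 10605 genes tested, 0 were called (0%). This fit had no sex term and each group held 1 female and 1 male, so differences between the sexes counted in its spread. At an unadjusted p under 0.05 there were 40 genes (0.377%). DESeq2 called 1 gene (0.00943%), ITPR1, and had 24 at an unadjusted p under 0.05 (0.226%). With no filter on low counts edgeR called 10 of 18287 genes (0.0547%), and 164 had an unadjusted p under 0.05 (0.897%). With sex as a term in the edgeR fit, 377 genes had an unadjusted p under 0.05 (3.55%) and 1 was called (0.00943%), the transthyretin gene TTR, at 8.25, 0.664, 183 and 0 CPM in Control female, Control male, LPS female and LPS male. TTR, a choroid plexus product, was thus high in LPS female alone, and in all other barcodes it stood at 10.2, 1.34, 313 and 1.18 CPM. Both LPS libraries lay above both controls for 8.51% of the genes and below them for 8.3%.

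Among the genes with the smallest p that were lower, ITPR1, the calcium release channel abundant in Purkinje cells, stood at 406.5, 151, 18.0 and 66.3 CPM in Control female, Control male, LPS female and LPS male (log2 fold change -2.85 ± 0.750 (SE), edgeR adjusted p = 1). Of the 985 ITPR1 UMIs of Control female, 920 came from 3 nuclei, each with a single PAX2 UMI. In Control male, 176 of 227 came from 6 nuclei. Without the nuclei of at least 3 ITPR1 UMIs, ITPR1 stood at 27.6, 35.95, 18.0 and 42.8 CPM. These nuclei were chosen by ITPR1 itself, so the values show only how much of its level they hold and are no test of the difference. The 3 nuclei of Control female also held the Purkinje markers CA8 and SKOR2 at 1542 and 299 CPM and GRIK1 at 8580 CPM.

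GRIK1, a kainate receptor subunit, stood at 299, 135, 63.2 and 62.4 CPM in Control female, Control male, LPS female and LPS male (log2 fold change -1.81 ± 0.481 (SE), edgeR adjusted p = 1), and at 64.1, 93.1, 63.2 and 45.5 CPM without those nuclei. CA8 stood at 47.5, 22.6, 10.4 and 6.502 CPM, and at 5.09, 7.05, 10.4 and 5.52 CPM without them. Among nuclei with at least 2 PAX2 UMIs the log2 fold changes were -0.71 for ITPR1, -0.74 for GRIK1 and 0.17 for CA8. SYPL2, a membrane protein of the synaptophysin family, at 12.8, 13.9, 2.18 and 2.60 CPM, and the unnamed gene ENSMMUG00000039010, at 41.7, 57.7, 14.7 and 18.2 CPM, had log2 fold changes of -2.66 and -1.73 there, against -2.46 ± 0.660 and -1.59 ± 0.389 (SE) over all PAX2+ nuclei.

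The genes of smallest p that were higher in LPS-exposed fetuses were HFM1, HBG2, HES1, NRG4 and LAMA3. HFM1, a helicase of meiosis, stood at 14.0, 11.3, 53.4 and 39.0 CPM in Control female, Control male, LPS female and LPS male, with both LPS libraries high. Its log2 fold change was 1.87 ± 0.435 (SE), and 0.94 in all other barcodes, which thus rose too. No gene was called for a difference between these sets in the filtered edgeR fit given below, so the rise is not shown to be particular to PAX2+ nuclei. HES1, a repressor downstream of Notch that holds cells as progenitors, had 9, 4, 22 and 12 UMIs, or 3.71, 2.66, 11.99 and 15.6 CPM. Its level over all libraries was 82.2 CPM in the MFGE8 LDB2 group of high doublet scores and at most 9.95 CPM in the other 7 groups. The part of that group in the HES1 difference was not tested. The fetal globin gene HBG2, whose reads may be shared with near-identical globin genes, had 5, 5, 56 and 7 UMIs, or 2.06, 3.32, 30.5 and 9.10 CPM. HBG2 stood at 3.50, 11.9, 47.8 and 7.20 CPM in all other barcodes and at 29.4, 36.01, 410.6 and 27.5 CPM in barcodes of at most 100 UMIs, so it was highest in LPS female in each of these sets, and the part of free RNA in its difference was not tested. The gene of the laminin subunit LAMA3 stood at 36.3, 31.2, 49.6 and 142 CPM. For none of the 10 genes was the adjusted p below 1.

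The gene lists held no called gene. The counts of members above or below that follow are to be read against 8.51% of all genes with both LPS libraries above both controls and 8.3% with both below. Of 11 genes tested for GABA and glycine synthesis, release and uptake, 1 had both LPS libraries above both controls and 0 below, with a median log2 fold change of 0.07 against 0.01 over all genes tested. SLC6A5 did not separate the conditions (log2 fold change 0.07 ± 0.418 (SE)). The gene above was GPHN, for gephyrin, the postsynaptic scaffold of glycine and GABA-A receptors, at 1264, 1143, 1302 and 1302 CPM in Control female, Control male, LPS female and LPS male, with a log2 fold change smaller than its error (0.11 ± 0.349 (SE)). Of 9 GABA-A receptor subunits tested, 1 was above and 0 below (median 0.08), and of 16 ionotropic glutamate receptor subunits 1 was above and 1, GRIK1, below (median 0.04). Of 12 GABAergic lineage transcription factors, 0 were above and 1 below (median -0.09), BCL11A at 69.7, 67.7, 31.6 and 44.2 CPM in the order Control female, Control male, LPS female and LPS male. RORA, a nuclear receptor needed by Purkinje cells and interneurons, stood at 1322, 724, 1217 and 1138 CPM.

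Of 23 migration and guidance genes, 1 was above and 2 were below (median 0.09), among them the neuregulin receptor ERBB4 at 1394, 1692, 1070 and 1168 CPM in Control female, Control male, LPS female and LPS male (-0.46 ± 0.342 (SE)). Of 17 neurexins, neuroligins and adhesion genes, 2 were above and 0 below (median 0.06). NRXN3, a presynaptic adhesion protein, stood at 25160, 17350, 26340 and 14790 CPM, a split by sex and not by condition. Of 9 hedgehog pathway genes, 0 were above and 1 below (median -0.16). Of 9 Notch pathway genes, 3 were above and 1 below (median 0.46; 8.51 and 8.3% of all genes), the above being HES1, HEY1 at 4.54, 5.97, 5.997 and 14.3 CPM, and the Notch ligand JAG1 at 14.4, 24.6, 29.4 and 35.1 CPM in the same order of libraries. The list counts HES1, whose group of high level is given above. HEY1 counts as above on near-equal levels, 5.997 CPM in LPS female against 5.97 CPM in Control male. Of 11 innate immune and cytokine response genes, 1 was above and 2 below (median -0.08), with the cytokine signal transducer STAT3 at 100.3, 187, 122 and 130 CPM. A further list was chosen on these same samples, as the leading genes of a PAX2 cluster, so its direction is not independent evidence. Of its 10 genes, 0 were above and 0 below (median -0.12).

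Marker lists of other cells were counted in the same way, and separated means that both LPS libraries lay on the same side of both controls. Of the markers tested, 0 of 9 granule cell genes, 0 of 7 Golgi or glycinergic genes, 0 of 4 oligodendrocyte lineage genes, 0 of 4 endothelial or mural genes and 0 of 2 unipolar brush cell genes separated the conditions. Separated in either direction were 2 of 9 molecular layer interneuron genes (SORCS3 and GRIA1), 2 of 8 Purkinje genes, 2 of 16 cycling genes, 3 of 10 astroglial or progenitor genes, 1 of 3 microglial genes and 1 of 2 fibroblast genes. The 6 PAX2+ interneuron genes are the rule itself, so SORCS3, the 1 of them that separated, is a description: it stood at 1119, 1013, 1475 and 1338 CPM in Control female, Control male, LPS female and LPS male. Over all genes tested 16.8% separated.

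The third comparison asked whether the change after LPS differed between PAX2+ nuclei and all other barcodes of the same libraries. In an edgeR fit of the 8 sums with library as a block, 0 of 15300 genes were called (0%), and 367 had an unadjusted p under 0.05 (2.4%). With no filter on low counts, 26 of 22838 were called (0.114%), and 529 had an unadjusted p under 0.05 (2.32%). For SORCS3, PAX2 and the other rule genes this difference was partly fixed by the selection and is not given.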

How the data were processed

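The data were 10x 3' v3.1 single-nuclei libraries of fetal rhesus cerebellum, aligned by the authors with Cell Ranger, for which the sources name versions 4 and 5.0, to Mmul_8.0.1. The files hold raw UMI counts per gene and barcode, as deposited, with 30807 genes, of which 897 had an identifier in place of a symbol in the files that was paired with one here. Members and lists were chosen with earlier results of these data known. Barcodes with at least 500 genes were kept, and doublet scores were computed from simulated doublets without removing barcodes (the highest 8% per library are called high). Levels are UMIs summed over nuclei and scaled to a common total (CPM), and folds between nuclei add 1 CPM. Groups came from Leiden clustering (1000 variable genes scaled within library, 20 components, 15 neighbours, resolution 0.5).

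UMIs were summed per library and fitted with edgeR 4.0.16 (limma 3.58.1, R 4.3.3), with filterByExpr, TMM and the quasi-likelihood test. DESeq2 1.42.0 was the other tool. Shares were compared by the exact permutation test of SciPy 1.17.1, and clustering used scanpy 1.11.5 and leidenalg 0.10.2. On simulated data the LPS fit (10507 genes) recovered 1.49% of genes changed by 1, 35.8% by 2 and 81.8% by 4 on the log2 scale. The simulation gave all genes the same dispersion and had no difference between the sexes, unlike the real libraries. Recovery in the real data was therefore not measured. The labels tie each library to 1 fetus and give no replicate numbers, and p-values measure the spread between 2 fetuses per group. These were 1 female and 1 male, so without a sex term that spread includes any difference between the sexes. Intervals cover counting error only. Named genes were the rule genes, the 4 highest members of each list, the 5 smallest p-values in each direction, and the 20 highest and 10 lowest folds over other barcodes. Leading genes of groups and genes described as separated, and TTR, were chosen after their values were seen. A floor for a count of 0 was 3 counts. Some genes of the lists are not reported here by name.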

Additional observations from a re-analysis of the deposited data

Results flagged for a closer look

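The LPS minus control difference in the share of PAX2+ nuclei was 0.219 percentage points between the female libraries and -2.08 points between the male libraries. It is listed because the 2 differences have opposite signs. The female libraries, at 3.62% (exact 95% interval 3.25 to 4.02%) and 3.84% (3.397 to 4.32%), overlap within counting error, so a change in females was not shown, and the male libraries stood at 3.90% (3.50 to 4.33%) and 1.82% (1.53 to 2.14%). With 1 library per sex and condition the difference between the sexes was not tested.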

How the results depend on the processing

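The labels give no replicate numbers, so the libraries were paired only by sex, through sex as a term in the fit and the differences within each sex. The difference in the share of PAX2+ nuclei (-0.930 points) was -1.23 to -0.324 points over 6 other selections of nuclei and -11.7 points among barcodes with at least 2 companion markers. Thinned to 1000 UMIs, an alternative chosen after seeing the data, the last was -6.91 points. Leaving out 1 library gave -1.94 to 0.0794 points, and the sign turned without LPS male. The count of called genes was 0 with edgeR, 1 with DESeq2, 1 with sex as a term and 10 of 18287 (0.0547%) with no filter on low counts. It ranged from 0 to 65 when 1 library was left out, with 65 without Control female and 26 without Control male. In those fits the lone control was assumed to vary like the LPS libraries. The count for the difference from other barcodes was 0, 26 with no filter, and 15 to 137 when 1 library was left out, with 24 without Control female, 15 without Control male, 37 without LPS male and 137 without LPS female. The cause was not tested. Of 1460 values of named genes under alternatives, 1454 kept their side of the threshold and 6 passed it (ITPR1, GRIK1 and HBG2), while 171 uncalled values had the other sign.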
